A study of Saccharomyces cerevisiae with 48 samples.

Results

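The 9 genes described here, ADE1, ADE3, ADE4, ADE6, ADE8, ADE12, ADE13, ADE16 and ADE17, encode enzymes of de novo purine synthesis in budding yeast or of the folate step that feeds it. They were chosen by name, and each was read by the 1 probe set that the platform annotation pairs with that gene, so they are 9 of 5449 yeast genes measured. All 9 were above background on every array, where background was a log2 intensity of 8.40 set from the fission yeast probe sets of the array, and the lowest value of any of the 9 was 10.01. Transcripts were measured on 48 Affymetrix Yeast Genome 2.0 arrays. The mutant strain was BF264-15DU, mating type a, with the temperature-sensitive cdc28-4 allele of the cyclin-dependent kinase Cdk1, and had 2 courses, of 15 arrays (10 to 290 min) and 18 arrays (10 to 350 min), with an array every 20 min. The control was BF264-15DU, mating type a, with a wild-type CDC28 gene and a bar1 mutation, and had 1 course of 15 arrays every 15 min from 15 to 225 min. In both strains cultures were grown at 25 °C in the rich medium YEPD, their small daughter cells were separated out by elutriation, and time was counted from the transfer of these cells to YEPD at 37 °C. The shift in temperature, the fresh medium and the elutriation are therefore shared by every array, and no array was taken before the transfer. The BF264-15DU background is known to carry an ade1 mutation that the sample labels do not list, so the ADE1 values are transcript levels and say nothing of the enzyme. Both strains share this background, and the part of that mutation in the values of the other genes of the pathway was not tested.

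De novo purine synthesis builds the purine ring stepwise on phosphoribosyl pyrophosphate (PRPP), with glycine, glutamine, aspartate and folate-bound one-carbon units as donors, and ends at inosine monophosphate (IMP), from which AMP and GMP are made. In yeast the transcription factors Bas1 and Pho2 activate most of these genes together when the intermediates of the pathway accumulate, and added adenine represses them. Ade4 catalyses the first step, Ade8 and Ade6 follow, and Ade1 and Ade13 act later. Ade16 and Ade17 are isozymes for the closing steps to IMP. Ade12 and Ade13 turn IMP into AMP, and Ade3 makes the one-carbon folates that Ade8, Ade16 and Ade17 use.

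The authors' intensities were used on the log2 scale, on which 1 unit is a factor of 2 in intensity, and levels are never set against each other between genes. The median intensity of the measured genes was between 1486 and 1645 on every array. The cdc28-4 courses differed most at 170 min: the standard deviation of the difference between courses over all genes was 0.32 there and between 0.12 and 0.19 at the other times. That value does not tell which of the 2 arrays departs. A list of 5 heat shock and stress genes had a mean log2 intensity of 14.21, 14.24, 13.29, 12.54 and 12.11 at 10, 30, 50, 90 and 150 min in cdc28-4. The part of this stress state in the changes of the 9 genes was not tested. BAR1 lay between 10.99 and 12.88 in cdc28-4 and between 7.38 and 7.69 in wild type, where the label gives a bar1 mutation. A list of 6 a-specific genes that includes BAR1 averaged 12.36 to 13.02 per array in cdc28-4 and 11.27 to 11.84 in wild type, and its other 5 genes averaged 12.53 to 13.05 in cdc28-4 and 12.04 to 12.67 in wild type. A list of 4 alpha-specific genes averaged 8.57 to 10.20 per array in cdc28-4 and 8.22 to 8.50 in wild type, where the label is mating type a for both, and no list gene was read at 0. The arrays report RNA relative to total RNA, so less RNA per cell and fewer cells carrying it cannot be told apart.

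**Figure D1:**
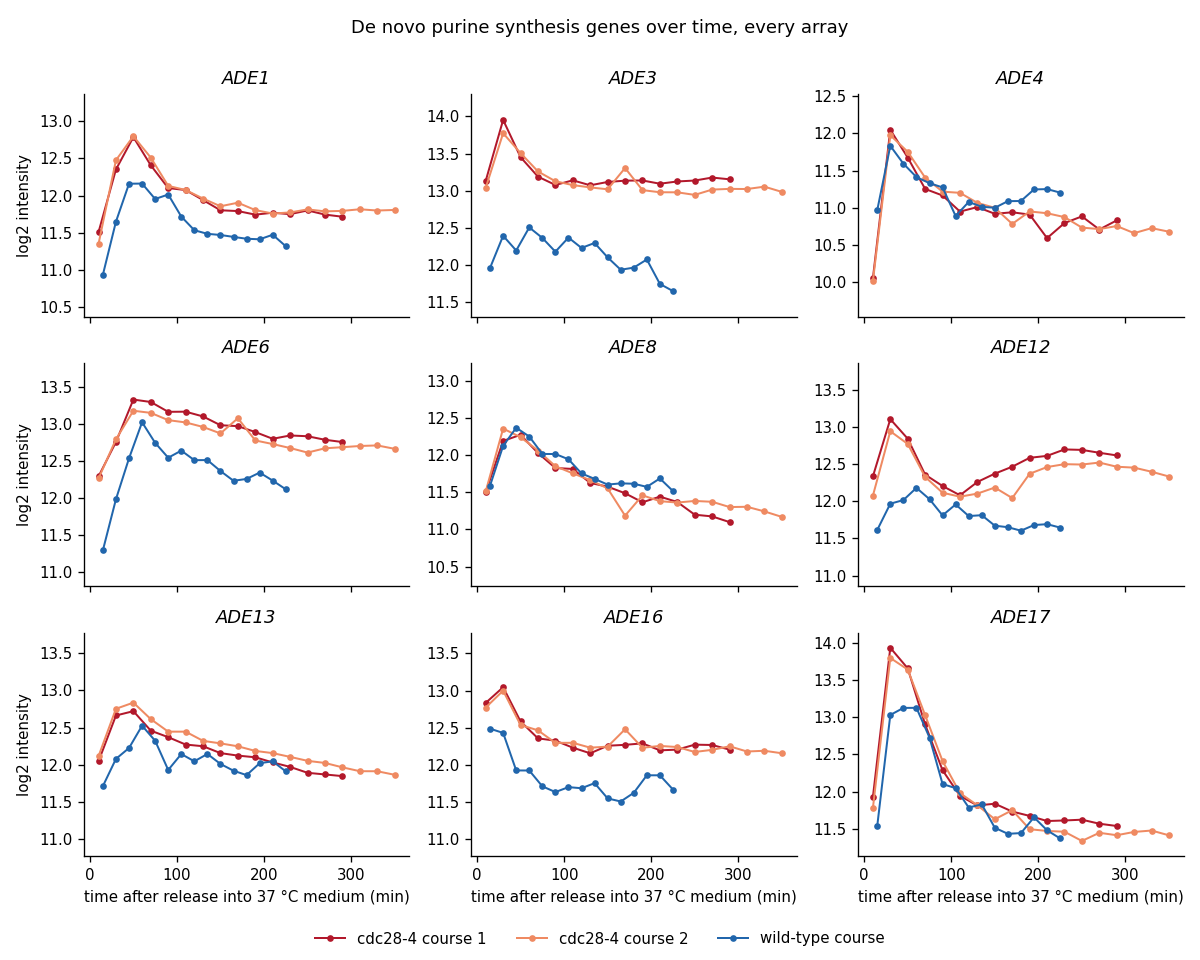
Log2 intensity of each of the 9 genes against time after transfer to 37 °C medium, 1 panel per gene with a 3-unit vertical span, 1 point per array, for cdc28-4 course 1, cdc28-4 course 2 and the wild-type course. In both cdc28-4 courses each gene has its highest value at 30 or 50 min, and ADE12 climbs again after 110 min.

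In the cdc28-4 cells all 9 genes made a pulse that was highest at 30 or 50 min. Of the 9 members, 8 (all except ADE8) peaked at the same time in both courses. The plot of profiles by course shows that the pulse was tallest for ADE17 and ADE4 and small for ADE16. ADE1, ADE6 and ADE13 were highest at 50 min in both courses, and ADE8 was so in course 1. The F test for any change over the 15 times with an array from each course passed for 9 of 9 genes, as it did for 84.5% of all genes (limma, adjusted p over all genes of 2.87e-05 or less for each). With 10 and 30 min left out of the times compared, it still passed for 9 of 9. The count over all genes then fell to 2866, against 4602 with them. The arrays of those times still entered the estimate of the spread.

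ADE4, whose product opens the pathway, was at 12.05 and 11.97 at 30 min in courses 1 and 2, against 10.05 and 10.01 at 10 min. That is a 3.95-fold rise (log2 change 1.98, SE 0.10, n = 2 arrays per time, limma adjusted p = 2.42e-12), and the courses differed by less than 0.1 at both times. ADE4 then declined through 11.67 and 11.75 at 50 min to 11.16 and 11.22 at 90 min. It did not return to its 10 min level: at 290 min it was at 10.83 and 10.75, still 0.78 and 0.74 above the first array.

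ADE8 encodes the first of the folate-dependent transformylases. It read 12.19 and 12.36 at 30 min, against 11.50 and 11.51 at 10 min (log2 change 0.77, SE 0.09, limma adjusted p = 7.34e-07), and 12.27 and 12.24 at 50 min. From there it sank almost steadily to 11.10 and 11.30 at 290 min, below the first array in both courses. ADE6, which encodes the glutamine-dependent enzyme of the next step, rose later. It was at 12.29 and 12.26 at 10 min, 12.75 and 12.79 at 30 min, and 13.33 and 13.17 at 50 min. It then declined slowly, with 13.16 and 13.05 at 90 min and 12.75 and 12.68 at 290 min, so that both courses ended above their start.

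ADE1 encodes the enzyme that adds aspartate to the growing ring. It also peaked at 50 min, at 12.79 and 12.80, after 12.35 and 12.48 at 30 min and 11.51 and 11.35 at 10 min. The rise by 30 min was 0.98 (SE 0.06, limma adjusted p = 1.00e-10). ADE13 encodes adenylosuccinate lyase, which works both in the pathway and in the AMP branch. It was at 12.05 and 12.11, 12.66 and 12.75, and 12.72 and 12.83 at 10, 30 and 50 min. It then drifted down in every later part of the course, to 11.85 and 11.96 at 290 min and 11.86 at 350 min in course 2.

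The isozymes ADE16 and ADE17 behaved differently. ADE17 had the largest change of the 9 genes, at 13.94 and 13.80 at 30 min against 11.93 and 11.78 at 10 min. This is a 4.04-fold rise (log2 change 2.01, SE 0.10, limma adjusted p = 2.52e-12), the 39th largest change in either direction among the 5449 genes. ADE16 was at 13.05 and 13.00 at 30 min, against 12.84 and 12.77 at 10 min. Its log2 change was 0.22 (SE 0.06, limma adjusted p = 0.00751), which missed the threshold without the 30 min array of course 1 (0.0504) or the 10 min array of course 2 (0.0664), in a range of 0.00500 to 0.0664 over its 11 alternatives. After 90 min ADE16 stayed between 12.16 and 12.33 except at 170 min in course 2, where it read 12.48.

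ADE12 encodes adenylosuccinate synthase, the entry to the AMP branch. It was at 13.10 and 12.94 at 30 min, against 12.33 and 12.07 at 10 min (log2 change 0.82, SE 0.12, limma adjusted p = 1.58e-05). It fell to 12.08 and 12.06 at 110 min and then rose again, to 12.70 and 12.50 at 230 min. The ADE12 courses differed by a median of 0.16 over 15 times and by 0.42 at 170 min, where course 2 read 12.04 and course 1 read 12.46. ADE3 encodes the cytoplasmic C1-tetrahydrofolate synthase. It was at 13.95 and 13.77 at 30 min, against 13.13 and 13.04 at 10 min (log2 change 0.78, SE 0.09, limma adjusted p = 3.35e-07). By 90 min it was back at 13.08 and 13.13, and it then stayed between 12.94 and 13.18 with the exception of 13.30 at 170 min in course 2.

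Taking the steps in turn, all 9 genes rose in cdc28-4 between 10 and 30 min, where 31.4% of all genes rose and 24.5% fell. The median change of the 9 was 0.78 on the log2 scale, beside 0.04 for all genes. Between 30 and 90 min 8 of the 9 fell and ADE6 rose, where 28.6% of all genes fell and 31.4% rose. The falls were 1.52 for ADE17, 0.86 for ADE12, 0.82 for ADE4, 0.76 for ADE3, 0.71 for ADE16, 0.44 for ADE8 and 0.30 each for ADE1 and ADE13 on the log2 scale, and ADE6 rose by 0.33 (SE 0.09). The median of the 9 was -0.71, beside 0.01 for all genes. The call for ADE13 is the fragile one: its adjusted p was 0.00592 in limma, 0.0914 after quantile normalization, and 3.69e-06 to 0.0914 over its 11 alternatives. It was also lost without the 90 min array of course 1 (0.0511) or the 30 min array of course 2 (0.0535). The sign of the ADE6 change depends on the start, since its 90 min arrays lay 0.17 and 0.13 below those at 50 min.

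**Figure D2:**
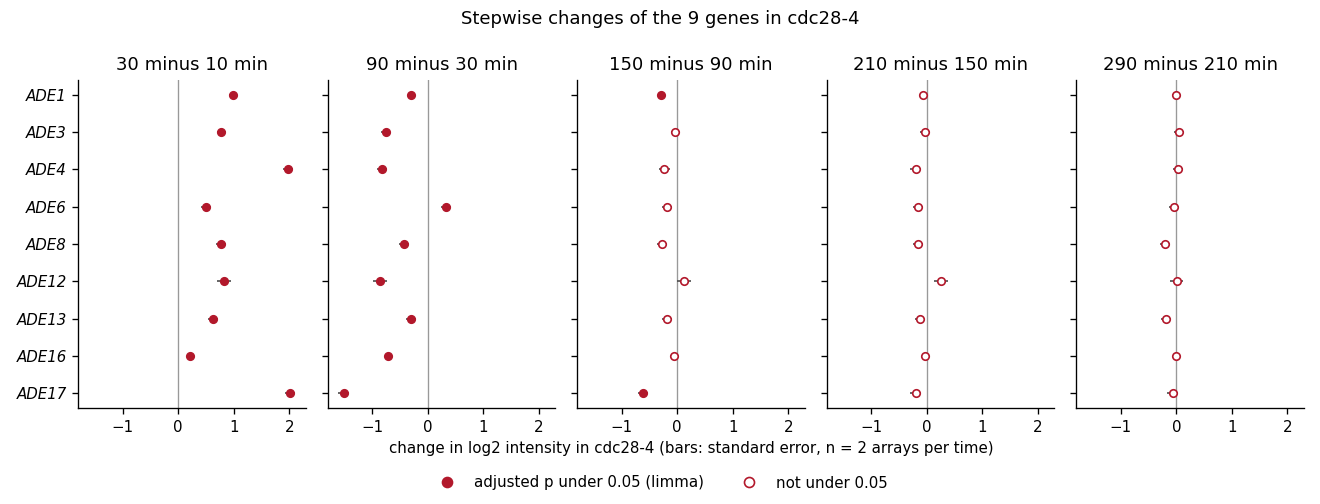
Change in log2 intensity of each gene over 5 successive steps in cdc28-4 (later minus earlier time), with the standard error of the fit from 2 arrays per time. Filled points passed at an adjusted p under 0.05 and open points did not. The 9 filled points of the first step are all to the right of 0, and 8 of the 9 in the second step are to its left.

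After 90 min the steps were small. Between 90 and 150 min ADE17 fell by 0.62 (SE 0.10, limma adjusted p = 0.000822) and ADE1 by 0.29 (SE 0.06, limma adjusted p = 0.00974), where 1.32% of all genes fell and 1.71% rose. The ADE1 call was lost on leaving out the 90 min array of either course or the 150 min array of course 1, and with fission yeast centring (adjusted p 0.0506), with adjusted p values of 0.00274 to 0.162 under the 11 alternatives. With the course as a block, which pairs the arrays of a culture, ADE13 passed as well (change -0.19, adjusted p 0.0100, range 0.0100 to 0.938), where the block called 7.12% of all genes. No member passed between 150 and 210 min, where 1.73% of all genes rose and 1.1% fell, or between 210 and 290 min, where 0.771% rose and 0.422% fell (limma). At an unadjusted p under 0.05 those 2 steps hold 875 and 810 genes. With the course as a block, 1 member passed in each: ADE12 at 0.26 (adjusted p 0.0295, range 0.0295 to 0.869) and ADE13 at -0.19 (adjusted p 0.0116, range 0.0116 to 0.959). The block called 8.06% and 7.96% of all genes in these steps.

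Summed over the late part of the cdc28-4 courses, the small steps added up. The mean of 270 and 290 min was set against that of 90 and 110 min, with 4 arrays each. ADE17 fell by 0.66, ADE8 by 0.57, ADE13 by 0.46, ADE4 by 0.38, ADE6 by 0.37 and ADE1 by 0.33 on the log2 scale, so 6 members fell where 29.1% of all genes did. Only ADE12 rose, by 0.45 (SE 0.09, limma adjusted p = 0.000259), where 27.2% of all genes rose. The ADE12 arrays read 12.65, 12.52, 12.62 and 12.46 in the later window, against 12.21, 12.11, 12.08 and 12.06 in the earlier one. The 4 arrays of each window come from the same 2 cdc28-4 courses. ADE3 (-0.01) and ADE16 (-0.06) did not pass, and these calls were the same for all 9 genes under each alternative tried.

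The wild-type course also began low and climbed, and most genes were highest later than 30 min. The highest value was at 60 min for 6 genes, at 45 min for ADE8, at 30 min for ADE4 and at 15 min for ADE16, on single arrays 15 min apart. ADE17 read 11.54, 13.03, 13.13, 13.13 and 12.73 at 15, 30, 45, 60 and 75 min, then 12.10 at 90 min and 11.37 at 225 min. ADE6 read 11.30, 11.98, 12.53 and 13.02 at 15, 30, 45 and 60 min, a climb of 1.72. ADE4 read 10.97 at 15 min and 11.83 at 30 min. The first arrays of the strains were taken at different times and are not compared. ADE16 was highest on the first wild-type array, at 12.49, 12.43 and 11.93 at 15, 30 and 45 min.

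Strains could be compared at the 4 times that both were sampled, 30, 90, 150 and 210 min. Wild type has 1 array per time, so its spread is taken to be that of the cdc28-4 arrays. The F test for a different course over these times passed for 5 of 9 genes, ADE1, ADE3, ADE4, ADE13 and ADE17, where 33.8% of all genes passed. With the course as a block ADE12 (adjusted p 0.000629, range 0.000629 to 0.280) and ADE16 (0.0476, range 0.0409 to 0.760) passed too, where the block called 50.3% of all genes. The wild-type array at 30 min decided this count, since 0 of 9 passed over the other 3 times (adjusted p 0.185 for ADE1, 0.152 for ADE3, 0.0975 for ADE4, 0.116 for ADE13 and 0.710 for ADE17). ADE4 and ADE13 were also lost without the 210 min array of cdc28-4 course 1 (0.0850 and 0.0554) or of wild type (0.452 and 0.126), and ADE12 passed without the 150 min array of wild type (0.0350). Scaling took ADE13 over the threshold, to adjusted p values of 0.0547 with median centring and 0.0589 with quantile normalization, and with fission yeast centring ADE3 was lost (0.0603) and ADE16 passed (0.0409). Over 19 alternatives the adjusted p was 0.00300 to 0.452 for ADE4, 1.59e-05 to 0.126 for ADE13 and 0.00342 to 0.152 for ADE3.

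The step from 30 to 90 min was also tested on its own. ADE1 changed by -0.25 and -0.35 in the cdc28-4 courses, against 0.36 in wild type, a difference of -0.66 (SE 0.11, limma adjusted p = 0.000202). ADE12 changed by -0.90 and -0.83 in cdc28-4, against -0.16 in wild type, a difference of -0.71 (SE 0.22, limma adjusted p = 0.0267). ADE17 changed by -1.65 and -1.39 in cdc28-4, against -0.93 in wild type, a difference of -0.59 (SE 0.17, limma adjusted p = 0.0186). ADE3 changed by -0.87 and -0.65 in cdc28-4, against -0.21 in wild type, a difference of -0.55 (SE 0.15, limma adjusted p = 0.0143). These 4 had lower changes in cdc28-4, as did 10.8% of all genes, and none had a higher one, as did 8.48%. The other members differed by -0.33 (ADE8), -0.26 (ADE4), -0.23 (ADE6), -0.15 (ADE13) and 0.09 (ADE16), none past the threshold.

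**Figure D3:**
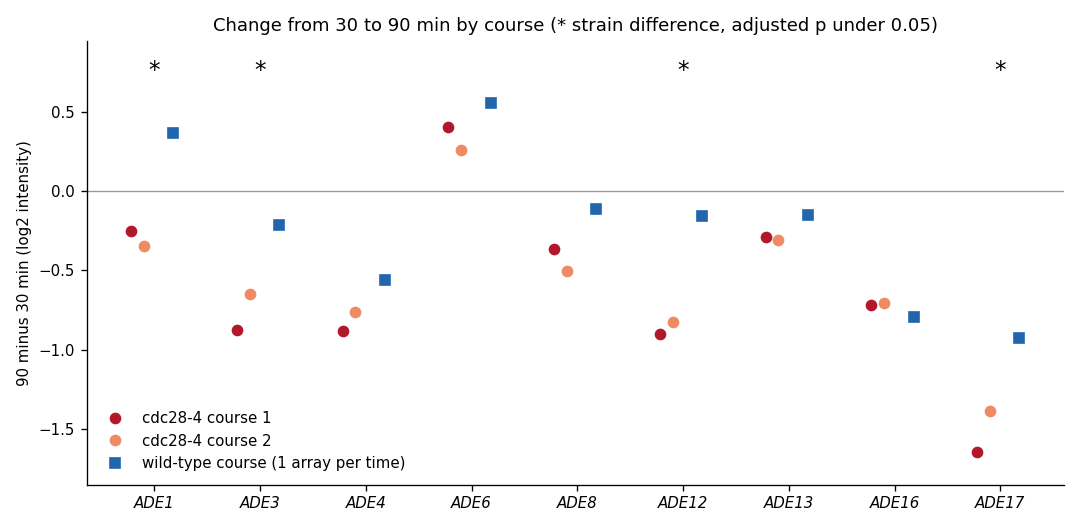
Change in log2 intensity between 30 and 90 min for each gene in cdc28-4 course 1, cdc28-4 course 2 and the wild-type course, 1 point per course. Asterisks mark the 4 genes with a strain difference at an adjusted p under 0.05, and in each of them both cdc28-4 points lie below the wild-type point.

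These strain calls rest partly on scaling and on single arrays. Centring each array on its fission yeast probe sets left 2 of the 4, since ADE3 then had an adjusted p of 0.0606 (range 0.00242 to 0.0606) and ADE12 one of 0.0519 (range 0.000232 to 0.0722). ADE12 and ADE17 were also lost without the 30 min array of cdc28-4 course 1 (0.0722 and 0.0541), ADE12 without the 90 min array of course 2 (0.0676), and ADE17 without the 90 min array of course 1 (0.0608, range 0.00411 to 0.0608). The wild-type peak came later than 30 min for 7 of these 9 genes, so a step that starts at 30 min begins before their maximum in that strain. In cdc28-4 it also begins before the maximum, at 50 min, for ADE1, ADE6 and ADE13, and for ADE8 in course 1. The part of peak time in these strain differences was not tested. In the later steps no member passed (limma): from 90 to 150 min 1.28% of all genes had a higher and 1.17% a lower change in cdc28-4, and from 150 to 210 min these shares were 1.96% and 1.1%. At an unadjusted p under 0.05 these steps hold 903 and 950 genes. With the course as a block ADE13 passed from 90 to 150 min at -0.27 (adjusted p 0.0301, range 0.0301 to 0.715), with -0.19 in cdc28-4 and 0.08 in wild type, where the block called 8.33% of all genes. Without the 210 min array of cdc28-4 course 2, ADE4 passed from 150 to 210 min at -0.62 (adjusted p 0.0383, range 0.0383 to 0.436), a value of -0.45 with that array.

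Over the 4 shared times, 7 of the 9 genes had a higher mean level in cdc28-4, where 30.7% of all genes were higher and 34.7% lower. ADE3 averaged 13.27 in cdc28-4 and 12.11 in wild type, a difference of 1.16 (SE 0.08, limma adjusted p = 0.000106). The differences were 0.71 for ADE12, 0.61 for ADE6, 0.58 for ADE16, 0.38 for ADE1 and 0.34 each for ADE13 and ADE17. ADE4 averaged 11.23 in cdc28-4 and 11.34 in wild type, and ADE8 averaged 11.77 in cdc28-4 and 11.86 in wild type, and neither passed. The level comparison has 2 cdc28-4 course means and 1 wild-type course mean, and by the listing order of the samples the labelling kit changed with the strain, so strain and kit cannot be told apart. The ratio of 3' to 5' probe sets for TDH1, a sign of how far labelled RNA reaches, was -0.01 to 0.54 on the log2 scale in cdc28-4 and 0.95 to 1.66 in wild type, and its part in the level differences was not tested.

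The 9 profiles were alike to different degrees. Each course was centred on its own mean and Pearson's r was taken over 48 arrays, which share the temperature shift and, within a course, a culture. The 36 pairs had a median r of 0.62. ADE17, ADE8, ADE13, ADE1 and ADE4 formed a close group with r between 0.76 and 0.93. With the other genes, r was between 0.11 and 0.65 for ADE12, -0.35 and 0.76 for ADE6, and -0.35 and 0.61 for ADE16. ADE6 and ADE16 had an r of -0.35, the only pair below 0. ADE17 was closest to the mean of the other 8, at 0.97, and ADE16 farthest, at 0.38. On the 36 arrays after 70 min the median r of ADE12 with the others was -0.33, and that of ADE6 was 0.73.

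**Figure D4:**
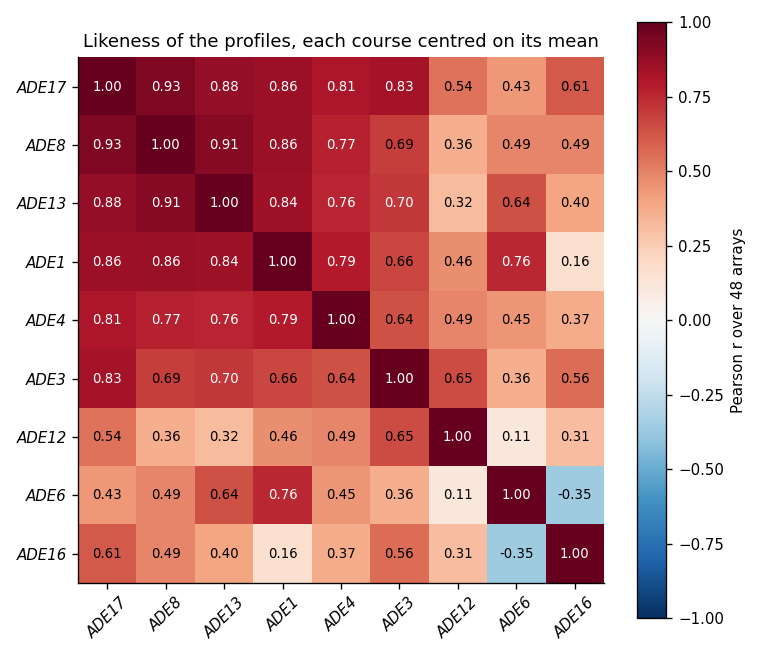
Pearson's r between the profiles of each pair of genes over 48 arrays, with each course centred on its own mean (colour and number, from -1 to 1). ADE17, ADE8, ADE13, ADE1 and ADE4 form the dark block at upper left, and ADE6 against ADE16 is the one pair below 0.

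Outside the 9 genes, 4 of the 10 profiles most like their mean were those of genes on the one-carbon and glycine list. The 10 genes with the highest r were SHM2 (0.95), GCV2 (0.95), SER33 (0.93), HOM3 (0.93), GCV3 (0.89), HIS1 (0.89), ATR1 (0.89), SNZ1 (0.89), ADE2 (0.88) and SPL2 (0.87), out of 5440. The rest of the one-carbon and glycine list ranged from 0.85 for GCV1 to -0.44 for MIS1, with 0.31 for LPD1, 0.05 for DFR1 and -0.36 for SHM1. SHM2 encodes the cytoplasmic serine hydroxymethyltransferase, GCV2 and GCV3 subunits of the glycine cleavage system, and SER33 a first enzyme of serine synthesis. HOM3 encodes aspartate kinase, HIS1 the first enzyme of histidine synthesis, ATR1 a transporter of the plasma membrane, SNZ1 a vitamin B6 synthesis protein and SPL2 a protein of the phosphate response. SHM2 read 14.36 and 14.38 at 30 min in cdc28-4, against 12.94 and 12.81 at 10 min, and in wild type 12.32 at 15 min and 13.94 at 45 min. On the arrays after 70 min these 10 values ranged from 0.58 for HIS1 to 0.90 for SHM2.

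ADE2, which encodes the carboxylase step of the same pathway, followed the members. It read 13.19 and 12.91 at 30 min in cdc28-4, against 12.01 and 11.97 at 10 min (log2 change 1.06, SE 0.08, limma adjusted p = 2.33e-09), and fell by 1.08 from 30 to 90 min. The pathway gene ADE5,7 is not analysed here. Of the regulators, BAS1 did not follow the pulse: it read 8.73 and 8.61, 9.58 and 9.53, and 10.25 and 10.00 at 10, 30 and 90 min, and its r with the members was -0.01. BAS1 rose by 0.88 from 10 to 30 min (limma adjusted p = 2.13e-06) and by a further 0.57 from 30 to 90 min (limma adjusted p = 0.000225), the step in which 8 members fell. PHO2 changed by -0.24 and -0.29 in these steps, past the threshold in neither. GCN4, the activator of amino acid synthesis genes, rose by 0.24 and then fell by 0.18. GCN4 is controlled mainly in translation, which these arrays do not measure. In mean level BAS1 was lower in cdc28-4 by 0.37 (limma adjusted p = 0.00957), as were 34.7% of all genes. Strain and labelling kit cannot be told apart in that comparison.

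Genes that supply or share the pathway were followed as lists. Among all genes 31.4% rose and 24.5% fell from 10 to 30 min, and 31.4% rose and 28.6% fell from 30 to 90 min. Of 13 one-carbon and glycine genes, 9 rose and 3 fell from 10 to 30 min in cdc28-4 (median 1.03), and 3 rose and 8 fell from 30 to 90 min (median -0.59). SER33 was the largest rise of the first step, at 1.96, and the largest fall of the second, at -1.67. MIS1, the mitochondrial counterpart of ADE3, went the other way, at -1.44 and then 2.00. Of 7 histidine genes, whose synthesis also draws on PRPP, 4 rose and 0 fell in the first step, HIS7 most at 0.91, and 1 rose and 4 fell in the second. HIS4, which is also a target of Bas1 and Pho2, had a change of -2.43 in the second step, and HIS6 rose by 0.97.

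In the other lists most genes rose in the step in which 8 purine synthesis genes fell. In that step 31.4% of all genes rose and 28.6% fell, and in the first step 31.4% rose and 24.5% fell. All 5 PRPP synthetase genes rose from 30 to 90 min (median 0.88, PRS4 most at 1.04), after 1 rise (PRS3, 0.26) and 1 fall (PRS2, -0.35) in the first step. Of 17 genes of the purine branches and salvage, 4 rose and 7 fell from 10 to 30 min (median -0.20), and 12 rose and 2 fell from 30 to 90 min (median 0.79). GUA1, which makes GMP, had the largest fall of the first step, at -1.45, and the purine and cytosine permease gene FCY2 the largest rise, at 1.66. AAH1, the adenine deaminase, read 12.15 and 12.02 at 90 min, against 9.16 and 9.43 at 30 min (log2 change 2.79, SE 0.10, limma adjusted p = 5.62e-14), while GUD1, the guanine deaminase, changed by -1.15. Of 9 pyrimidine synthesis genes, 4 rose and 3 fell in the first step, with URA7 at 0.46 and URA6 at -0.88, and 6 rose and 2 fell in the second, with URA7 at 1.94 and URA10 at -2.00.

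**Figure D5:**
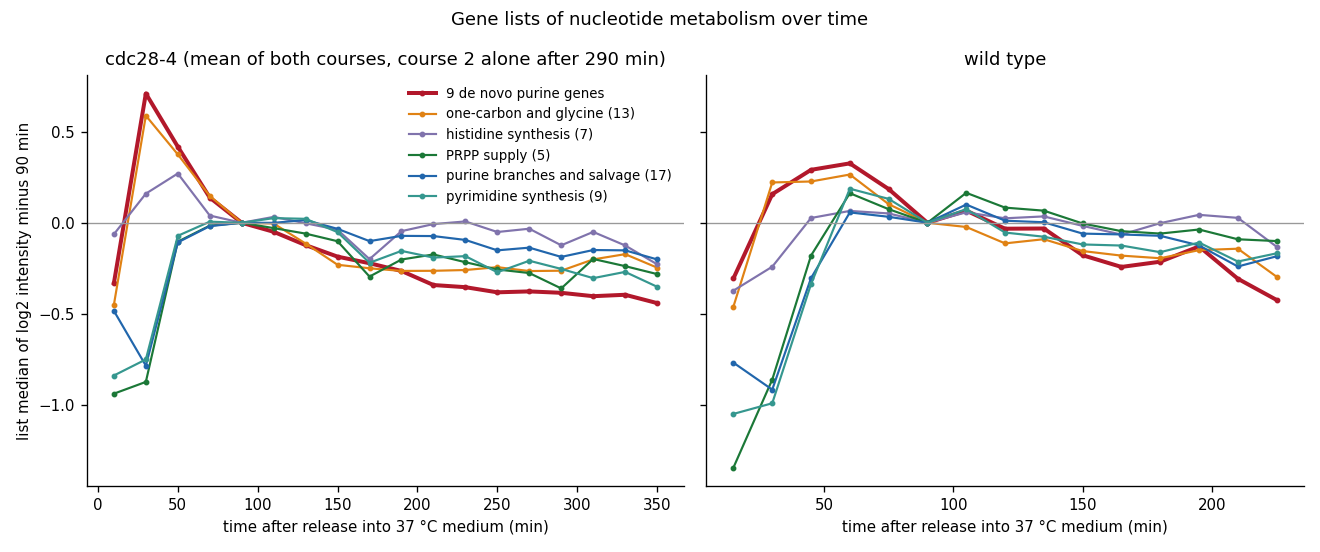
Median over each gene list of log2 intensity minus the same gene's value at 90 min, against time, in cdc28-4 (left) and in wild type (right), with the number of genes of each list in the legend. In cdc28-4 the purine synthesis and the one-carbon and glycine lists are above their 90 min level at 30 min, by 0.71 and 0.59, while the PRPP, salvage and pyrimidine lists are below theirs, by 0.88, 0.79 and 0.75.

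Late in cdc28-4 more genes fell than rose in each of these lists. In the 270 and 290 min window against 90 and 110 min, 0 of 5 PRPP synthetase genes rose and 5 fell, with 0 and 8 of 13 one-carbon and glycine genes, 0 and 4 of 7 histidine genes, 1 and 9 of 17 branch and salvage genes, and 1 and 5 of 9 pyrimidine genes, beside 27.2% of all genes that rose and 29.1% that fell. AAH1 had the largest fall, at -1.77, and URA10 the largest rise, at 0.53. For the strain difference from 30 to 90 min, 6 of 13 one-carbon and glycine genes and 3 of 7 histidine genes had lower changes in cdc28-4 and 0 higher ones, beside 10.8% and 8.48% of all genes, and SER33 (-1.33) and HIS4 (-1.96) differed most. ADE2 differed by -0.45 (limma adjusted p = 0.0324). Of the branch and salvage genes 2 of 17 had lower changes, GUD1 (-1.04) and FCY2 (-0.69, named after its value was seen). Of the pyrimidine genes URA3 had a higher change (0.97) and URA10 a lower one (-1.28), and of the PRPP synthetase genes 0 of 5 passed.

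A rhythm within the courses was sought with a cosine fitted over a curved trend. The period was taken from 29 cell cycle genes, at 84 min in wild type and at 160 min in cdc28-4, the longest period tried. No member passed in wild type, where 0.128% of all genes did, or in cdc28-4, where 0.734% did (limma). At an unadjusted p under 0.05 there were 576 genes in wild type and 1627 in cdc28-4. Of the 29 cell cycle genes 0 passed in wild type and 2 in cdc28-4, so the lack of a call does not show that the members lack a rhythm. In wild type the cosine took from 12.4% (ADE4) to 46.5% (ADE13) of the detrended variance of a member. The highest shares, of ADE13 and ADE16 (44.9%), came with amplitudes of 0.16 and 0.12 and did not pass (limma adjusted p 0.402 and 0.475). For ADE12 in cdc28-4 the test passed with a longer period (adjusted p 0.0347) and without the 10 and 30 min arrays (0.0438, over a range of 0.0347 to 0.852), and ADE17 passed without those arrays (0.0441, range 0.0441 to 0.852). These settings called 14.6% and 18.7% of all genes.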

How the data were processed

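The authors' deposited values were linear probe set intensities, made with the R package affy per the submitters' processing notes. Of its version, summary method and normalization nothing is given in the sources used here. Log2 intensities were computed from the deposited values with no constant added. Of 10928 probe sets, 5498 had 1 yeast gene, 1 had several, 1746 belonged to fission yeast, 213 were controls and 3470 had no gene. For 47 genes with several probe sets the probe set of highest mean intensity stood for the gene, which gave 5449 genes, and 12 symbols were updated through RefSeq. Each of the 9 genes had 1 probe set.

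Groups are strain and time. limma 3.58.1 (R 4.3.3) was fitted to all 48 arrays with 1 mean per strain and time (33 groups, 15 residual degrees of freedom, from the cdc28-4 times with 2 arrays). P-values were two-sided where signed, Benjamini-Hochberg adjusted over all genes and read at 0.05. Changes are later minus earlier time, and strain differences are cdc28-4 minus wild type. Levels were compared with 3 course means. The fits were tested on simulated data with noise drawn independently for each array. That simulation left out the link between arrays of a culture, so it does not show that the p-values hold here. The number of arrays limits the precision. Per the series design the replicate number is the time course, so equal numbers share a culture. Differences between the courses at 2 times had a median r of 0.47 over 105 pairs of times (0.01 to 0.90), and 97 were above 0.1. The main fit does not pair the arrays of a culture and treats these differences as independent. Its p-values, and the steps in which it called few genes, carry that limit. With the course as a block more genes were called in each comparison where it was run. Fits with the course as a block, other normalizations, a filter, and fits leaving out arrays were run as alternatives.

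Named were the 9 genes, BAS1, PHO2 and GCN4, the largest rise and fall past the threshold in a list, and the 10 most similar genes. The members, the lists and these rules were chosen with earlier results of these data known.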

Additional observations from a re-analysis of the deposited data

Results flagged for a closer look

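The F test for strain and time over 30, 90, 150 and 210 min passed for 5 of the 9 members, where 33.8% of all genes passed (limma, adjusted over all genes). The single wild-type array at 30 min decided this count, as described above. F was 13.96 for ADE1 (adjusted p = 0.000680), 6.09 for ADE3 (0.0183), 5.75 for ADE4 (0.0220), 5.97 for ADE13 (0.0193) and 8.10 for ADE17 (0.00680).

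The step from 30 to 90 min was called different between the strains for 4 of the 9 members, ADE12 among them, which did not pass the F test. In this step 10.8% of all genes had a lower change in cdc28-4 and 8.48% a higher one. Centring each array on its fission yeast probe sets left 2 of these 4 calls. The cdc28-4 change minus the wild-type change was -0.66 for ADE1, -0.55 for ADE3, -0.71 for ADE12 and -0.59 for ADE17 on the log2 scale. In both cdc28-4 courses each of these genes moved down, and the single wild-type course moved up for ADE1 and down by less for the other 3.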

How the results depend on the processing

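Over 126 results for single members, 1683 alternative values were computed. Of these, 1644 counted as kept, 27 lost the call, 12 gained it and 0 changed sign as a called value. A tested value counted as kept if it stayed on the main value's side of the threshold, so an uncalled value could change sign. For 106 of the 126 results every alternative gave the main call. The counts of rising and falling members from 10 to 30 min, from 30 to 90 min, in the late window and in mean level stayed within 1.5 times under each setting tried. The members that changed call under a setting are named in the report, and the block by course changed no other member's call.

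With 10 and 30 min left out of the times compared, 2866 genes passed the time effect. With the replicate block the genes past the threshold were 388 from 90 to 150 min, 439 from 150 to 210 min, 434 from 210 to 290 min, and for the strain differences 454 from 90 to 150 min and 570 from 150 to 210 min, against 165, 154, 65, 134 and 167 without it. The block put 1 member past the threshold from 150 to 210 min, from 210 to 290 min and in the strain difference from 90 to 150 min. Fission yeast centring gave 89 genes from 150 to 210 min (79 rising, 10 falling, against 94 and 60), 182 from 210 to 290 min (178 and 4, against 42 and 23) and 83 in the strain difference from 150 to 210 min. It left 1 falling member, ADE17, from 90 to 150 min and 2 lower members in the strain difference from 30 to 90 min, where 589 genes were higher and 396 lower against 462 and 591. In the strain difference from 90 to 150 min it gave 27 higher and 93 lower, against 70 and 64. Median centring gave 175 higher and 36 lower from 150 to 210 min, against 107 and 60.

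Leaving out 1 array at a time gave 54 to 89 genes from 90 to 150 min (members falling 1 to 2), 29 to 67 from 150 to 210 min and 9 to 20 from 210 to 290 min. It gave 987 to 2143 for the strain and time F test (members 0 to 6, with 0 without the wild-type 30 min array), 65 to 101 and 67 to 128 for the strain differences from 90 to 150 and from 150 to 210 min (members lower 0 to 1 from 150 to 210 min), and 2 to 4 lower members for that from 30 to 90 min. A group left with 1 array was assumed to vary like the others. The cause of these shifts was not tested, beyond the fewer arrays in the fit.

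The count of rhythmic genes stayed within 1.5 times of the main one under 4 of 8 alternatives in wild type and 2 of 10 in cdc28-4. The others in wild type gave 0 after quantile normalization, 2 with a period shorter by 10 min, 0 with a linear trend and 27 without 15 and 30 min. The others in cdc28-4 gave 23 after median centring, 5 after fission yeast centring, 3 and 793 with a period 10 min shorter and longer (1 member with the longer), 0 with a linear trend, 1021 without 10 and 30 min (2 members), 1 in course 1 alone and 0 in course 2 alone.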
